A study of Homo sapiens with 6 samples.

Results

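The replication-dependent histone genes were examined in a human hepatoma line, Huh-7, with and without the plant flavone pectolinarigenin. The members are the genes whose symbols mark them as cluster copies of the core histones H2A, H2B, H3 and H4 (H2AC, H2BC, H3C or H4C with a number) or as H1-1 to H1-6 of the linker histone. They number 66 of the 60605 genes listed, with 6 of class H1, 16 of H2A, 17 of H2B, 13 of H3 and 14 of H4. The set was proposed with the differences between these same libraries known. The differences between the groups are therefore given as a description, with no test of the members as a set.

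The pectolinarigenin group received the compound at 100 µM for 24 h, and the control group received DMSO, the solvent, in its place (0 µM). Both groups had earlier taken up oleic acid, supplied at 100 µM over 24 h, and both had been starved, so neither shows cells without a lipid load. Each group had 3 libraries, made from total RNA with a VAHTS Universal V8 kit. No label names separate cultures for the libraries, and in bulk RNA more cells in S phase cannot be told apart from more histone RNA per cell.

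Histones are the proteins that DNA is wound on: pairs of H2A, H2B, H3 and H4 form the core of the nucleosome, and H1 binds the DNA that links cores. The cluster genes are transcribed mainly in S phase, when new DNA must be packed. Their messages usually end at a short stem-loop that the protein SLBP binds and that is cut with the help of the U7 small nuclear ribonucleoprotein, so that most lack a poly(A) tail. Some copies can also give longer messages that run past the stem-loop and carry a tail. Whether RNA was selected by its tail before sequencing is not given in the sources used here, and which form of RNA the reads came from was not tested.

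The stem-loop is shown because the gene models below differ in whether they run past it. A 16-base hairpin, with a perfect stem of 6 base pairs that opens with GG and a loop of 4 bases that opens with TT, was searched for in the first 100 bases after the stop codon of the GENCODE 29 models (GRCh38). It was found in 26 of the 64 members that this annotation holds (40.6%), at 22 to 67 bases from the stop codon, against 35 of all 20371 coding genes (0.172%), members included. It occurred in 4 forms, given 5′ to 3′ on the coding strand with T for U and the stem in capitals.
H2A, H2B and H3 form, 15 members: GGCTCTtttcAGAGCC
H2B and H3 form, 4 members: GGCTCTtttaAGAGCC
H4 form, 4 members: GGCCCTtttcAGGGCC
H4 form, 3 members: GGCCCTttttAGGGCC
The 7 hairpins with a GGCCCT stem all lay in H4 genes, and the 19 with a GGCTCT stem all lay in H2A, H2B or H3 genes. In the other members no such hairpin lay in the annotated stretch. Many of their models, such as those of H1-2 and H2BC12, end at the stop codon, so no bases after it could be searched. The share of 40.6% therefore also reflects where the models end. No match says only that these letters were not in that stretch.

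Promoters of RefSeq (GRCh38.p14, 250 bases before to 50 after the start of the gene) were found for 61 members. They are shown because several members lie head to head with a partner, and the counts of partners did not always behave alike. The TATA box (TATAAA) was present on either strand in 68.9% of the members' promoters and in 11.96% of all 27305 promoters. The CCAAT box (CCAAT) was present in 85.2% of the members' promoters, against 35.7% of all. It was in every promoter of H1, H2A, H2B and H3 and in 25% of those of H4. The octamer (ATTTGCAT), the sequence read by the factor POU2F1, was present in 41.0% of the members' promoters and in 1.80% of all. By class it was in 82.4% of H2B and 73.3% of H2A promoters and in 0 of the 6 H1, 11 H3 and 12 H4 promoters. A site of one motif could overlap a site of another, and a match is not evidence of binding. In the promoters below the 3 motifs are in capitals, on either strand.
H2AC6 (chr6:26123922-26124221, plus strand): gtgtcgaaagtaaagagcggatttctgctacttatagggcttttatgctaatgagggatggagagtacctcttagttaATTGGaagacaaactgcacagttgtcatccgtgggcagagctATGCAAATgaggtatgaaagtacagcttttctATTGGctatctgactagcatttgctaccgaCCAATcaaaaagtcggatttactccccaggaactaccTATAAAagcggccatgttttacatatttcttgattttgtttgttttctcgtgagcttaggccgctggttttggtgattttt
H2BC21 (chr1:149886633-149886932, minus strand): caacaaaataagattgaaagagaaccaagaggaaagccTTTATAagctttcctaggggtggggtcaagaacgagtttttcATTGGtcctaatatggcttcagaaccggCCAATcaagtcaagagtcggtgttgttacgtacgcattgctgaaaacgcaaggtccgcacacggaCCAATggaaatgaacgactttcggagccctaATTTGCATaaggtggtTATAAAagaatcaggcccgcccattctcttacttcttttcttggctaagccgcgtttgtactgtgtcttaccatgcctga
H2BC8 (chr6:26216639-26216938, minus strand): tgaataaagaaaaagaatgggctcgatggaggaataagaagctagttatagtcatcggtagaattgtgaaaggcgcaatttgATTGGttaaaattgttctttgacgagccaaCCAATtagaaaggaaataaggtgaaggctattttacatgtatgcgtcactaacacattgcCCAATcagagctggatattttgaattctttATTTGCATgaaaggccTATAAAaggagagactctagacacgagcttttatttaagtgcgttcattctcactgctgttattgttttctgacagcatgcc
H1-2 (chr6:26056421-26056720, minus strand): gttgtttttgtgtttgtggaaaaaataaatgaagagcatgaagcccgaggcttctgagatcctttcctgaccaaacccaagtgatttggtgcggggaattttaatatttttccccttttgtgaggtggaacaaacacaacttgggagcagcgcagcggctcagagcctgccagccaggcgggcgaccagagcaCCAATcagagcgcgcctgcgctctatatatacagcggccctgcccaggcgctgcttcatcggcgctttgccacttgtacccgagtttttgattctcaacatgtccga
The H2AC6, H2BC21 and H2BC8 promoters each hold an octamer, and the H1-2 promoter holds a CCAAT box but no octamer and no TATAAA.

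The libraries held 16054283, 16297404 and 20311261 counts with pectolinarigenin, against 18619775, 18652800 and 15140022 in control. The hepatocyte markers were present (8 of 8 tested, 7 of them lower with pectolinarigenin). The 10 markers of other cell types summed to 18.3 to 20.1 counts-per-million (CPM) with pectolinarigenin, against 30.3 to 33.7 CPM in control, and none passed 3.45 FPKM in any library. Of these 10, 3 were tested, with KRT19 higher and CD14 and PECAM1 lower. The immune marker PTPRC had 0, 2 and 0 counts with pectolinarigenin, against 1, 0 and 0 in control, and COL1A2 had 0 in all pectolinarigenin libraries, against 1, 0 and 0 in control. Their part in the histone values was not tested. Pectolinarigenin library 3, the deepest, stood apart from its group on the second principal component (9.64% of the variance). It was also the lowest of its group for 11 of the 19 members tested.

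Summed over all 66 members, the histone genes took 5070, 5248 and 5843 counts in the pectolinarigenin libraries, against 1661, 1698 and 1439 in the control libraries. After scaling for library size by the trimmed mean of M-values (TMM), this came to 304 ± 15.1 CPM with pectolinarigenin and 93.0 ± 2.70 CPM in control (SD, n = 3 each), a ratio of 3.27 (log2 1.71). Without the member with most counts in each class the log2 ratio was 2.41. No pectolinarigenin library lay near the control range. Of the members, 59 had at least 1 count and 7 had none in any library. A further 13 had under 10 counts in all 6 libraries together.

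**Figure D1:**
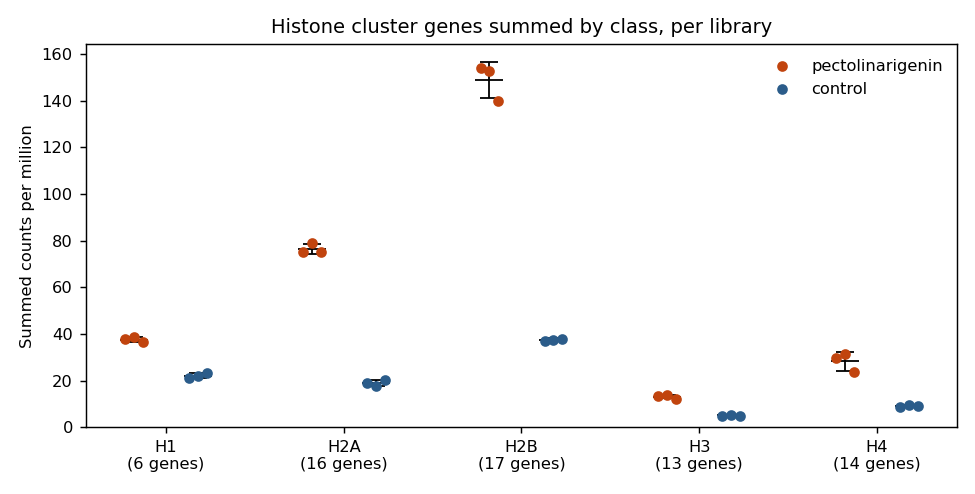
Summed TMM-scaled CPM of each histone class (vertical axis) in every library, with the pectolinarigenin libraries to the left of the control libraries. Points are libraries, and the bars give the mean and SD of 3; H2B stands at 149 CPM with pectolinarigenin and 37.5 CPM in control, and in no class do the groups overlap.

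The linker histone H1 differed least of the class sums. All 6 of its gene models extend only 68 to 128 bases beyond the coding part, a feature compared across the classes below. Its class sum was 618, 644 and 741 counts with pectolinarigenin, against 389, 402 and 352 in control. That equals 37.7 ± 1.17 CPM with pectolinarigenin and 22.2 ± 1.15 CPM in control, a ratio of 1.70. The groups did not overlap, and 95.9% of the class counts with pectolinarigenin and 95.7% in control belonged to 1 gene, H1-2.

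The H2A sum was 1229, 1313 and 1528 counts with pectolinarigenin, against 348, 328 and 306 in control (76.4 ± 2.23 CPM with pectolinarigenin and 19.1 ± 1.29 CPM in control, ratio 4.01). H2AC6 alone held 87.6% of the H2A counts with pectolinarigenin and 82.3% in control. The H2B sum was 2516, 2540 and 2844 counts with pectolinarigenin, against 674, 693 and 571 in control (149 ± 7.83 CPM with pectolinarigenin and 37.5 ± 0.647 CPM in control, ratio 3.97). H2B was spread over more genes. H2BC12 held 27.8% of its counts with pectolinarigenin, against 54.9% in control. Without H2BC12 the log2 ratio of the H2B sum was 2.68, against 1.99 with it.

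The H3 sum was 220, 228 and 250 counts with pectolinarigenin, against 93, 101 and 74 in control (13.2 ± 0.760 CPM with pectolinarigenin and 5.17 ± 0.287 CPM in control, ratio 2.55). The H4 sum was 487, 523 and 480 counts with pectolinarigenin, against 157, 174 and 136 in control (28.3 ± 4.14 CPM with pectolinarigenin and 9.03 ± 0.442 CPM in control, ratio 3.13). The wide spread of H4 came from pectolinarigenin library 3, at 23.6 CPM against 29.8 and 31.5 CPM in the other two. Without H4C9, its member with most counts, the log2 ratio of the H4 sum was 2.61, against 1.65 with it. As shares of all member counts, H2B took 48.9% with pectolinarigenin and 40.4% in control, while H1 took 12.4% with pectolinarigenin and 23.8% in control.

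Levels of single genes are given in FPKM as deposited, which are counts scaled by the length of the gene and the total of the library. In control cells H2BC12 led with 41.2 ± 2.87 FPKM, followed by H1-2 with 28.7 ± 1.55, H2AC6 with 9.30 ± 0.825, H4C9 with 5.45 ± 0.281 and H2BC5 with 3.86 ± 0.453 FPKM (SD, n = 3). The ranges of these 5 did not overlap in control. H2BC9 with 2.0 ± 0.020, H2BC4 with 1.63 ± 0.378, H2AC8 with 1.30 ± 0.372, H2BC11 with 1.23 ± 0.129 and H2BC21 with 1.08 ± 0.095 FPKM came next. Neighbours among these did not differ beyond their spread, and H2BC4 overlapped H2BC9. With pectolinarigenin the order began with H2BC12 (84.3 ± 1.62 FPKM), H1-2 (50.1 ± 2.02 FPKM), H2AC6 (40.7 ± 2.05 FPKM) and H2BC5 (29.2 ± 2.16 FPKM).

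A gene was tested when its mean over the 6 libraries was at least 1 FPKM, which kept 12829 genes and 19 of the 66 members. Of these 19, 9 had a control mean under 1 FPKM and so passed through their pectolinarigenin level. With edgeR's quasi-likelihood test and Benjamini-Hochberg adjustment over the 12829 genes, 18 of the 19 were higher at an adjusted p under 0.05 and none was lower. Across all genes tested, 25.3% were called higher and 25.3% lower, 50.6% in either direction. The members were picked on this contrast, so nothing is read from their count. One of the 18, H2AC13, lost its call without control library 1, 2 or 3 (adjusted p 0.0652, 0.0531 and 0.0822 in edgeR).

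**Figure D2:**
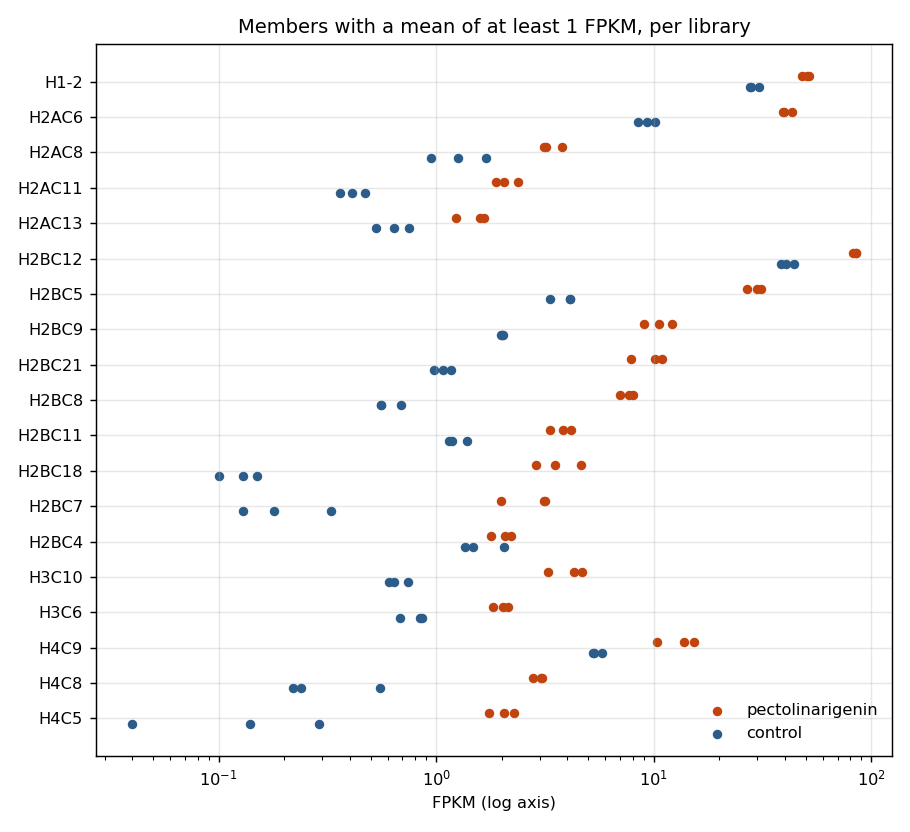
FPKM (horizontal log axis) of the 19 members with a mean of at least 1 FPKM, in rows grouped by class, with the 3 pectolinarigenin libraries above the 3 control libraries in each row. The groups overlap for H2BC4 and for no other row, and H2BC18 has a log2 fold change of 4.73. Over all genes tested, 29.4% were apart in CPM with pectolinarigenin higher. Of the 19 members, 9 passed the level for testing through their pectolinarigenin values, so nothing is read from how many were apart.

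H1-2, the linker histone with nearly all of the H1 counts, stood at 50.7, 51.7 and 47.8 FPKM with pectolinarigenin, against 27.6, 27.9 and 30.5 FPKM in control. Its log2 fold change was 0.77 (SE 0.075). H1-2 has a single exon at chr6:26055787-26056428 on the minus strand (GENCODE 29, GRCh38). H1-3 had 10, 18 and 17 counts with pectolinarigenin, against 2, 4 and 2 in control. H1-4 had 11, 6 and 7 counts with pectolinarigenin, against 6, 10 and 8 in control. So H1-3 did not overlap between the groups and H1-4 did, both at low counts and untested. H1-1, H1-5 and H1-6, named after their values were seen, had 7, 22 and 1 counts over all 6 libraries.

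Among the H2A genes, H2AC6 stood at 39.6, 43.0 and 39.4 FPKM with pectolinarigenin, against 9.27, 8.49 and 10.1 FPKM in control. The log2 fold change was 2.09 (SE 0.078), and every pectolinarigenin library was well above every control library. H2AC6 lies at chr6:26124145-26139116 on the plus strand, and its model runs 1128 bases past the hairpin. H2AC11 stood at 2.38, 1.88 and 2.06 FPKM with pectolinarigenin, against 0.36, 0.41 and 0.47 FPKM in control (log2 fold change 2.32, SE 0.22). H2AC8 stood at 3.79, 3.13 and 3.19 FPKM with pectolinarigenin, against 0.95, 1.26 and 1.69 FPKM in control (log2 fold change 1.35, SE 0.30). In both genes the groups were apart, although H2AC8 rested on only 26 to 33 counts with pectolinarigenin and 9 to 13 in control. H2AC13 stood at 1.24, 1.59 and 1.66 FPKM with pectolinarigenin, against 0.64, 0.75 and 0.53 FPKM in control (log2 fold change 1.17, SE 0.41). It shares 62.3% of its 50-base windows with other members, so its reads could have been divided among copies. Of the untested H2A genes, H2AC7 had 18, 11 and 14 counts with pectolinarigenin, against 3, 0 and 0 in control. H2AC20 had 2, 7 and 12 counts with pectolinarigenin, against 10, 7 and 7 in control. The groups were apart for H2AC7 and overlapped for H2AC20.

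Of the H2B genes tested, H2BC18, H2BC7 and H2BC8 had control means of 0.127, 0.213 and 0.603 FPKM. They passed the level for testing through their pectolinarigenin values, so their fold changes are not ranked against those of other members. H2BC18 stood at 4.62, 3.53 and 2.87 FPKM with pectolinarigenin, against 0.13, 0.15 and 0.10 FPKM in control, from 237, 184 and 186 counts with pectolinarigenin and 8, 9 and 5 in control. Its log2 fold change was 4.73 (SE 0.26). The gene spans chr1:149782689-149812373 and overlaps 2 other genes, with which it could share reads. H2BC7 stood at 3.18, 3.13 and 1.98 FPKM with pectolinarigenin, against 0.18, 0.13 and 0.33 FPKM in control (log2 fold change 3.64, SE 0.36). H2BC8 stood at 8.04, 7.72 and 7.0 FPKM with pectolinarigenin, against 0.56, 0.56 and 0.69 FPKM in control (log2 fold change 3.61, SE 0.17). H2BC8, at chr6:26215159-26216692 on the minus strand, had exactly 16 counts in each control library.

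H2BC21 stood at 10.1, 10.96 and 7.85 FPKM with pectolinarigenin, against 1.08, 0.98 and 1.17 FPKM in control (log2 fold change 3.12, SE 0.15). It lies at chr1:149884459-149886652 on the minus strand, and its model runs 1729 bases past the hairpin, the most of any member. H2BC5 stood at 26.8, 29.7 and 31.0 FPKM with pectolinarigenin, against 4.13, 4.12 and 3.34 FPKM in control (log2 fold change 2.87, SE 0.12). H2BC5 spans chr6:26158146-26171349 and also overlaps 2 other genes. H2BC9 stood at 10.6, 12.1 and 9.03 FPKM with pectolinarigenin, against 1.98, 2.0 and 2.02 FPKM in control (log2 fold change 2.35, SE 0.13). H2BC11 stood at 4.17, 3.34 and 3.81 FPKM with pectolinarigenin, against 1.18, 1.38 and 1.14 FPKM in control (log2 fold change 1.56, SE 0.21). In each of these 4 genes all pectolinarigenin libraries were above all control libraries.

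H2BC12, the most abundant member, stood at 85.3, 82.4 and 85.1 FPKM with pectolinarigenin, against 38.6, 40.7 and 44.3 FPKM in control. Its log2 fold change was 1.00 (SE 0.076), and its tight replicates left the groups far apart. H2BC4 stood at 1.79, 2.21 and 2.07 FPKM with pectolinarigenin, against 1.48, 2.06 and 1.35 FPKM in control (log2 fold change 0.26, SE 0.26). It is the member tested that was not called, and its groups overlapped. Below the level for testing, H2BC15 had 123, 90 and 113 counts with pectolinarigenin, against 44, 29 and 18 in control. H2BC6 had 14, 18 and 18 counts with pectolinarigenin, against 3, 5 and 4 in control. H2BC17 had 18, 15 and 5 counts with pectolinarigenin, against 3, 2 and 2 in control. None of these 3 overlapped between the groups.

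The H3 genes were low. H3C10 stood at 4.28, 4.66 and 3.26 FPKM with pectolinarigenin, against 0.74, 0.61 and 0.64 FPKM in control (log2 fold change 2.56, SE 0.23). H3C6 stood at 2.02, 1.83 and 2.15 FPKM with pectolinarigenin, against 0.84, 0.68 and 0.86 FPKM in control (log2 fold change 1.30, SE 0.18). Both were apart between the groups. H3C8 had 17, 23 and 13 counts with pectolinarigenin, against 20, 17 and 11 in control. H3C2 had 16, 10 and 14 counts with pectolinarigenin, against 1, 7 and 3 in control. H3C3 had 2, 8 and 13 counts with pectolinarigenin, against 4, 10 and 6 in control. H3C2 was thus apart, while H3C8 and H3C3 overlapped.

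Among the H4 genes, H4C5 stood at 2.05, 2.27 and 1.75 FPKM with pectolinarigenin, against 0.14, 0.29 and 0.04 FPKM in control (log2 fold change 3.52, SE 0.37). Without control library 2 the H4C5 value was 4.23. H4C8 stood at 3.08, 3.04 and 2.80 FPKM with pectolinarigenin, against 0.22, 0.55 and 0.24 FPKM in control (log2 fold change 3.06, SE 0.25). H4C9 stood at 13.8, 15.3 and 10.4 FPKM with pectolinarigenin, against 5.31, 5.26 and 5.77 FPKM in control (log2 fold change 1.23, SE 0.14). All 3 were apart. H4C5 and H4C8, with control means of 0.157 and 0.337 FPKM, passed the level for testing through their pectolinarigenin values. Their fold changes are therefore not set against that of H4C9, the most abundant H4 gene. H4C9 held 59.1% of the H4 counts with pectolinarigenin and 78.8% in control.

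Over all 66 members, whether tested or not, the 3 pectolinarigenin libraries were all above the 3 control libraries in CPM for 27, all below for none, and overlapping for 39. Among the 34374 genes with a count, 15.6% were apart with pectolinarigenin higher and 16.1% with pectolinarigenin lower. The 47 members not tested summed to 17.4 ± 2.40 CPM with pectolinarigenin and 8.03 ± 1.02 CPM in control, a ratio of 2.16. Of these 47, 9 were apart, all with pectolinarigenin higher. For 11 members over 50% of the 50-base windows also occurred in another member, so their own values are uncertain. Only members were searched, so sharing with genes outside the set was not counted. Whether reads with several matches were dropped is not known, and dropped reads would be missing from the class sums too.

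The gene models divided the members. The deposited counts and FPKM imply a length for each gene with counts (57 members with a known coding length), and for the 7 members at 0 counts the GENCODE 29 length was used. The part beyond the coding sequence was either at most 165 bases (40 members, called short) or 438 to 4933 bases (24 members, called long), and the smallest implied by the deposited values was 61 bases. The split at 200 bases was chosen after the values were seen. The 24 long members took 3599, 3786 and 4076 counts with pectolinarigenin, against 841, 810 and 687 in control. They summed to 216 ± 14.1 CPM with pectolinarigenin and 45.2 ± 1.07 CPM in control, a ratio of 4.78. The 40 short members took 1453, 1444 and 1740 counts with pectolinarigenin, against 815, 871 and 743 in control. They summed to 87.1 ± 1.67 CPM with pectolinarigenin and 47.1 ± 2.53 CPM in control, a ratio of 1.85. Without H1-2 and H2BC12, the other 38 short members summed to only 9.79 ± 1.23 CPM with pectolinarigenin and 5.22 ± 0.867 CPM in control, a ratio of 1.88.

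**Figure D3:**
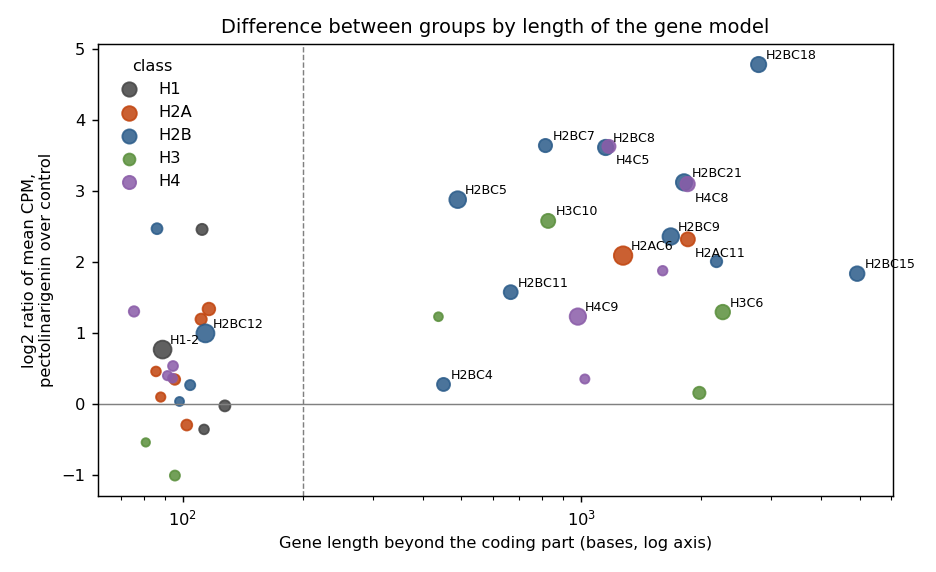
Gene length beyond the coding sequence in bases (horizontal log axis) against the log2 ratio of mean CPM, pectolinarigenin over control (vertical axis), for the 41 members with a known length, at least 10 counts in all and at least 4 in control. Points are genes, coloured by class and larger with more counts; the dashed line marks 200 bases. The 8 highest points plotted lie to its right, and the next highest are the short members H2BC17 (2.47) and H1-3 (2.46). The count minimum leaves out 3 short members, H2AC7, H3C13 and H4C11, with 1 to 3 control counts.

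Within H2B the long members had a ratio of 6.55 and the short ones 1.996. Within H2A the ratios were 4.30 and 1.98, within H4 3.18 and 2.53, and within H3 2.88 and 0.906, each time long before short. Several sums rested mostly on 1 gene. Of the H2B short counts with pectolinarigenin, 709, 687 and 868, H2BC12 held 678, 665 and 856. Of the H2A long counts there, 1147, 1239 and 1428, H2AC6 held 1061, 1170 and 1334. The H4 short members had 34, 29 and 23 counts with pectolinarigenin, against 9, 16 and 9 in control. H4C9, with most of the H4 long counts, had a fold change of 2.34, below the H4 short ratio. All 6 H1 members had short models, with a ratio of 1.70, so class and model length cannot be told apart for H1. The H3 short members are 5 genes with 8 to 10 counts per pectolinarigenin library and 6 to 18 per control library. Of the members tested, 15 had a long and 4 a short model, and 8 of the 15 and 1 of the 4 passed the level for testing with a control mean under 1 FPKM, so their fold changes are not set against each other.

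Not all long members differed. Of the 24, 17 were apart with pectolinarigenin higher and 7 were not, and of the 40 short members 9 were apart with pectolinarigenin higher, against 15.6% of all genes with a count. Under 10 counts in all were found for 3 of the 24 long and 17 of the 40 short members. Large differences at low counts also occurred among the short members: H4C11, named after its values were seen, had 10, 14 and 4 counts with pectolinarigenin, against 0, 1 and 0 in control. Among the 7 long members not apart, named after their values were seen, H2BC4, H3C8, H3C12, H4C2 and H4C15 overlapped, and H3C14 and H3C15, whose 50-base windows are all shared, had 0 counts. Of the 26 members with a hairpin, 18 had models that ran 116 to 1729 bases beyond it. A read beyond the annotated end of a short gene would not have been counted for that gene. The length also depends on the annotation. RefSeq gives H2BC12 a span of 8566 bases, while the deposited values imply 114 bases beyond its coding part, and RefSeq gives H2BC9 a span of 462 bases, while the deposited values imply 1680 beyond its coding part. What share of the reads lay beyond the stem-loop cannot be read from counts per gene and was not tested.

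Members that face each other across a shared promoter did not always differ together. Neighbours with start sites within 1000 bases on opposite strands were compared, and partners outside the naming rule were chosen after their values were seen. H2AC6 and H2BC4 start 218 bases apart, inside the H2AC6 promoter printed above. H2AC6 had 1061, 1170 and 1334 counts with pectolinarigenin, against 288, 264 and 256 in control. H2BC4 had 24, 30 and 35 counts with pectolinarigenin, against 23, 32 and 17 in control. H2BC21 and H2AC20 start 322 bases apart, and H2BC21 had 356, 392 and 350 counts with pectolinarigenin, against 44, 40 and 39 in control, while H2AC20 overlapped at the counts given above. H2BC21 has a long model and H2AC20 a short one, so in this pair partner and model length cannot be told apart. H2BC12 and H2AC12 start 330 bases apart. H2BC12 had 678, 665 and 856 counts with pectolinarigenin, against 356, 376 and 332 in control, and H2AC12 had 2, 1 and 3 counts with pectolinarigenin, against 2, 0 and 1 in control. With 9 counts over all 6 libraries, H2AC12 was too low for a difference to be detected. This pair therefore cannot show whether its partners differed together.

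The other 3 pairs with at least 100 counts in all were higher on both sides. H2BC8 and H2AC8 start 282 bases apart, and H2BC8 had 198, 193 and 218 counts with pectolinarigenin, against 16, 16 and 16 in control. H2AC8 had 31, 26 and 33 counts with pectolinarigenin, against 9, 12 and 13 in control. H2BC7 and H2AC7 start 276 bases apart, and H2BC7 had 61, 61 and 48 counts with pectolinarigenin, against 4, 3 and 6 in control. H2BC11 and H2AC11 start 291 bases apart. H2BC11 had 70, 57 and 81 counts with pectolinarigenin, against 23, 27 and 18 in control, and H2AC11 had 86, 69 and 94 counts with pectolinarigenin, against 15, 17 and 16 in control. In these 3 pairs both partners were apart between the groups. Pairs with fewer counts were named after their values were seen. H2AC13 was apart while its partner H2BC13 overlapped. H2BC17 was apart while both its neighbours, H2AC17 and H3C12, overlapped. Partners H2AC14 and H2BC14 both overlapped, at 18 and 3 counts in all, and H2AC1 and H2BC1 had 0.

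**Figure D4:**
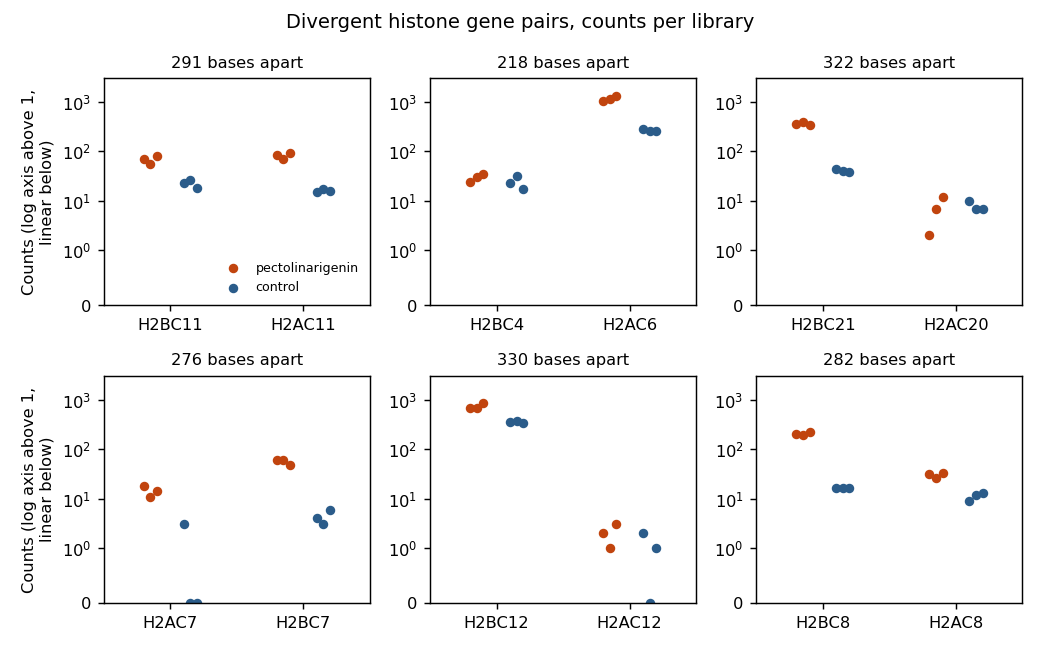
Counts per library, not scaled for depth (vertical axis, logarithmic above 1 and linear below), of both genes of 6 divergent pairs with at least 100 counts, pectolinarigenin to the left of control for each gene. Points are libraries; H2AC6 is far apart between the groups while its partner H2BC4 overlaps, and both H2BC11 and H2AC11 are apart.

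The 25 members whose promoter holds the octamer summed to 193 ± 10.1 CPM with pectolinarigenin and 50.7 ± 2.58 CPM in control, a ratio of 3.803. The 36 members with a promoter that lacks it summed to 111 ± 5.17 CPM with pectolinarigenin and 41.8 ± 0.486 CPM in control, a ratio of 2.65. The octamer is nearly a mark of class here, since only H2A and H2B promoters held it. Of the 25 genes with it 12 overlapped between the groups, and of the 36 without it 22 did. Under 10 counts in all were found for 6 of the 25 and 12 of the 36. Among all genes with a count, 15.6% were apart with pectolinarigenin higher and 16.1% with pectolinarigenin lower.

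The factors that make histone RNA had log2 fold changes of -1.07 to 1.02. Of 20 genes that act in transcription of histone genes or in processing of the ends of their RNA, 8 rose, 4 fell and 8 were not called (edgeR, against 25.3% of all genes in each direction). SLBP, which binds the stem-loop, was at 64.7, 69.7 and 70.9 FPKM with pectolinarigenin, against 57.1, 56.2 and 58.9 FPKM in control, and rose by 0.22 on the log2 scale (SE 0.058). ZNF473, a zinc finger protein of the U7 particle, rose by 1.02 on that scale (SE 0.087), and LSM10, a ring protein of the particle, by 0.77 (SE 0.12). LSM11, the partner of LSM10 in that ring, fell by 1.07 (SE 0.10), at 1.44, 1.67 and 1.43 FPKM with pectolinarigenin, against 3.25, 3.24 and 2.78 FPKM in control. HINFP, which binds H4 promoters, rose by 0.71 (SE 0.084), and SRRT, which works with the cap-binding complex, by 0.46 (SE 0.062). POU2F1 fell by 0.33 (SE 0.074), CASP8AP2, a factor of histone RNA cutting, by 0.24 (SE 0.070), and NCBP2, a cap-binding subunit, by 0.20 (SE 0.055). NPAT, the S-phase coactivator of histone genes, was not called, with a log2 fold change of -0.11 (SE 0.089).

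Replacement histones are made from genes outside the clusters, most of which give polyadenylated messages through the cell cycle. Of 10 tested, 3 rose, 3 fell and 4 were not called, near the 25.3% of all genes called in each direction. H3-3B, a gene for the variant H3.3, was at 90.7, 95.5 and 100.2 FPKM with pectolinarigenin, against 65.2, 63.2 and 64.6 FPKM in control (log2 fold change 0.53, SE 0.058). MACROH2A1 rose by 0.42 (SE 0.057) and H2AJ by 0.23 (SE 0.078). H2AX, the variant phosphorylated at DNA breaks, fell by 0.56 (SE 0.077), MACROH2A2 by 0.32 (SE 0.060) and H3-3A, the other H3.3 gene, by 0.30 (SE 0.055). Of 16 histone chaperones, which carry histones to and from DNA, 5 rose and 5 fell, also near 25.3% each way. Those with the smallest p that rose were HIRA (0.41, SE 0.088), NAP1L1 (0.29, SE 0.064), DAXX (0.24, SE 0.068) and ASF1A (0.24, SE 0.076). Those that fell were led by ASF1B (-0.62, SE 0.061), RBBP4 (-0.31, SE 0.054), NAP1L4 (-0.27, SE 0.053) and ATRX (-0.35, SE 0.077).

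Most genes of DNA replication were lower with pectolinarigenin. Of 34 tested, 23 fell, 1 rose and 10 were not called, where 25.3% of all genes fell and 25.3% rose. The median log2 fold change was -0.25, against 0.00071 over all genes tested. MCM4, a subunit of the replicative helicase, was at 17.3, 16.1 and 16.3 FPKM with pectolinarigenin, against 27.4, 28.0 and 27.6 FPKM in control, and fell by 0.78 (SE 0.054). CDK2, the kinase that drives entry into S phase, fell by 0.70 (SE 0.059), RRM2, which makes deoxynucleotides, by 0.76 (SE 0.066), and MCM3 by 0.57 (SE 0.052). RFC3, of the clamp loader, rose by 0.19 (SE 0.063). How far the share of cells in S phase moved with the histone counts was not tested.

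**Figure D5:**
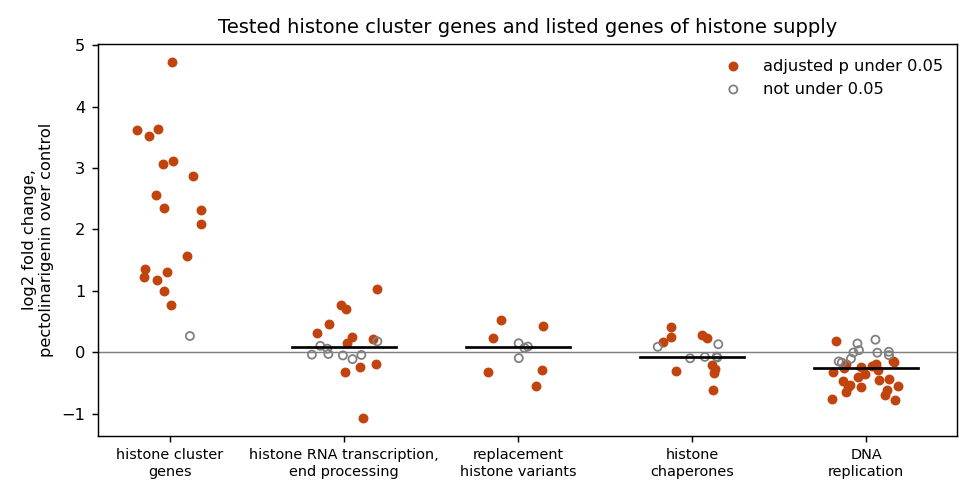
Log2 fold change, pectolinarigenin over control (vertical axis), of each tested gene in 5 lists: histone cluster genes, histone RNA transcription and end processing, replacement histones, histone chaperones and DNA replication. Points are genes, filled where the adjusted p in edgeR was under 0.05, and lines are medians, drawn for the 4 lists outside the clusters; the replication genes centre on -0.25. Of the 19 cluster genes, 9 passed the level for testing through their pectolinarigenin values, so no median is drawn for them.

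Other RNAs without a poly(A) tail gave little to compare. For the 16 listed, 8 entries had 0 counts in every library. These include an entry of RMRP, whose other entry had 1 count, in pectolinarigenin library 1. Only 1 gene of the list was tested. That gene, RN7SL1, the RNA of the signal recognition particle, was at 59.4, 84.8 and 91.4 FPKM with pectolinarigenin, against 70.6, 88.6 and 54.6 FPKM in control. It was not called (log2 fold change 0.10, SE 0.16). The 16 together summed to 17.7 to 27.7 CPM with pectolinarigenin and 16.9 to 27.7 CPM in control, so their ranges overlapped.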

How the data were processed

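The authors deposited whole-number counts per gene, not normalized, and FPKM values for 6 libraries. Per the submitters' processing notes, cutadapt 1.9.1, HISAT2 2.0.1 and HTSeq 0.6.1 were used with GRCh38; the sources used here give no annotation release, strand setting or rule for reads with several matches. The deposited FPKM equal counts divided by library totals and by 1 length per gene, checked on 1846 genes above 20 FPKM (largest coefficient of variation of the implied length 0.000189). Counts were tested with edgeR 4.0.16 (R 4.3.3; quasi-likelihood, TMM factors, no covariate, 2-sided, Benjamini-Hochberg over all tested genes), a design tested on simulated data. SE is the log2 fold change divided by the square root of F. No label names separate cultures, so a p-value reflects the spread among 3 libraries a group, possibly technical. Members, lists and tests were chosen with earlier results of these data known. Named were all members with a mean of at least 1 FPKM, the 10 others with most counts, and of each list of histone supply or replication up to 4 called genes per direction with the smallest p, plus SLBP and NPAT. Gene positions and coding lengths are from GENCODE 29 (64 members matched, 53 on chromosome 6 and 11 on chromosome 1). Alternatives were median-of-ratios factors, no TMM factors, other filters, DESeq2 1.42.0, limma 3.58.1 on log2(FPKM + 1), a replicate block and leaving out each library. One listed gene is not reported here.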

Additional observations from a re-analysis of the deposited data

How the results depend on the processing

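All 18 members called higher kept a positive log2 fold change in every alternative that tested them, and no member tested changed sign. At a mean of at least 5 FPKM, 7 of the 7 members tested were called higher, and over all genes 2088 were called higher and 2010 lower, because fewer genes were tested (7144). Leaving out 1 library gave 16 to 20 members called higher and 0 lower, 2629 to 3245 genes called higher and 2675 to 3265 lower, 12 to 19 listed genes called higher and 28 to 34 lower. H2AC13 also lost its call without a filter on low values (adjusted p 0.0508 in edgeR), and DESeq2 gave it no adjusted p. Same-numbered libraries did not deviate together (correlations of -0.0025, 0.016 and 0.0018), so no pairing by number was visible. Libraries handled together without a shared deviation would look the same, so whether the numbers pair the samples is not known. With the replicate number as a block, 17 members were called higher, with H2AC13 at 0.05005. Without the member with most counts in each class, the log2 ratio of the class sum was 0.69 for H1, 1.49 for H2A, 2.68 for H2B, 2.61 for H4 and 2.41 over all classes. Summed as FPKM in place of CPM, it was 1.85 for H2A, 1.56 for H2B, 1.25 for H3 and 1.42 over all. The log2 ratios with each library left out were 0.73 to 0.81 for H1, 1.96 to 2.05 for H2A, 1.96 to 2.03 for H2B, 1.32 to 1.40 for H3, 1.56 to 1.76 for H4 and 1.68 to 1.75 over all. Among the listed genes, chaperones called higher went to 3 without control library 2, and replication genes called higher ranged over 0 to 2. Depth limits the 20 members with under 10 counts in all, for which a difference was not detectable.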
